A study of Mus musculus with 12 samples.

Results

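Hippocampal RNA-seq libraries of mice given a fecal microbiota transplant carry a number from 1 to 4 within each of 3 groups. The 3 libraries numbered 4 stood apart from the other 9 with similar difference profiles, though some gene lists did not behave alike in the 3 groups. The comparison described here sets FMT-CON 4, FMT-DSS 4 and FMT-SP 4, 3 of 12 libraries, against the 9 libraries numbered 1 to 3. These 3 were picked because they lie together at one end of the main axis of variance that the groups do not explain. The values that picked them are all gene levels of these 12 libraries, so every difference between number 4 and the rest is given as a description, with no test. Each of the groups FMT-CON, FMT-DSS and FMT-SP had 4 libraries. The series text calls FMT-SP by the name FMT-DSS+SP, with SP for the neuropeptide substance P. No source used here gives what CON and DSS abbreviate, the donors of the transplants, the strain, sex and age of the mice, or the time of sampling. All 3 groups had received a transplant, so none is an untreated control. The labels do not say what the number stands for, nor whether each library is a separate animal.

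Bulk RNA-seq of tissue reads the RNA pool as a whole, so a library can differ from others through the cells it holds, through what these cells transcribe, or through which RNA molecules survive extraction and enter the library. Mitochondrially encoded transcripts come from the organelle's own genome, have almost no untranslated ends, and include subunits of respiratory complexes I, III, IV and V. Nuclear messenger RNAs of neurons often have long 3′ untranslated regions (3′ UTRs), the stretch after the stop codon, and those of ribosomal proteins and small respiratory subunits have short ones. In bulk tissue, fewer cells of a type and less RNA per cell cannot be told apart.

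The deposited unit was FPKM, fragments per kilobase of transcript scaled to 1000000 mapped fragments (M). The estimated depth was 33.6 to 34.8 M in the libraries numbered 4 and 31.5 to 37.3 M in the other 9, so depth did not separate them. Between 12287 and 12371 genes reached 1 FPKM in the libraries numbered 4, and between 12262 and 12845 in the other 9. The 10 most abundant genes took 25.4% to 30.9% of the summed FPKM in the libraries numbered 4 and 17.9% to 22.2% in the others. Differences are on the log2(FPKM + 1) scale, as the library numbered 4 minus the mean of the other 3 of its group, which gives 3 differences per gene, 1 for each group. A gene was called higher or lower where its library numbered 4 lay beyond all 3 others of its group, in the same direction, in all 3 groups. Of 27978 genes, the 12559 whose mean over all libraries reached 1 FPKM were examined.

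After each gene was centred on its group means, the first axis of a singular value decomposition held 48.6% of the variance, and the next 2 axes held 16.0% and 14.9%. Scores on the first axis were 0.27 for FMT-CON 4, 0.29 for FMT-DSS 4 and 0.24 for FMT-SP 4. The other 9 lay between -0.18 and 0.08, and the highest of them was FMT-CON 3. The 3 libraries thus formed one end of the axis, and none of the 9 others overlapped them. The difference profiles of the 3 groups resembled each other across the 12559 genes, with Pearson's r of 0.72 between FMT-CON 4 and FMT-DSS 4, 0.84 between FMT-CON 4 and FMT-SP 4, and 0.69 between FMT-DSS 4 and FMT-SP 4. These correlations are across genes, which are not independent replicates, and no library is used in more than 1 of the 3 profiles.

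**Figure D1:**
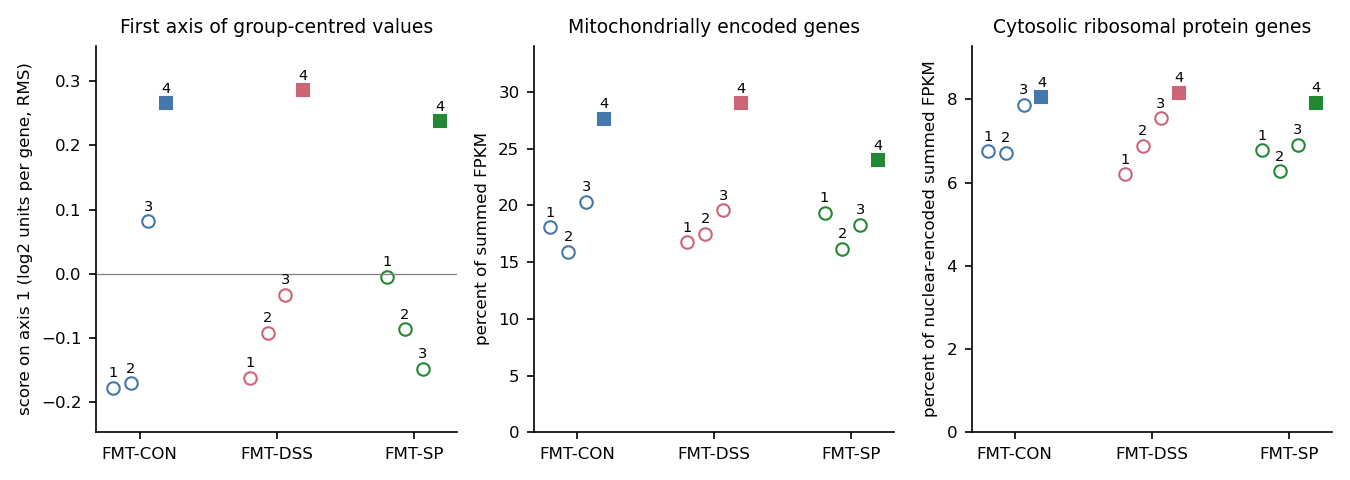
Each library's score on the first axis of group-centred log2(FPKM + 1) values (left, root mean square per gene), its percent of summed FPKM in mitochondrially encoded genes (middle) and its percent of nuclear-encoded FPKM in cytosolic ribosomal protein genes (right). Filled squares are the libraries numbered 4 and open circles those numbered 1 to 3; the squares lie above all circles in each panel, narrowly so on the right (7.91% against a highest circle of 7.87%).

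In all, 1748 genes (13.9%) were higher and 3209 (25.6%) lower in the libraries numbered 4 of all 3 groups. Their median differences were 0.39 and -0.40, and the median over all genes examined was -0.06. Among them, 530 of the higher and 1019 of the lower genes had a mean difference of at least 0.5 in size. Values were above all 9 other libraries in all 3 for 1137 genes (9.05%) and below all 9 for 2146 (17.1%). A further 1549 genes were beyond the others upward in exactly 2 of the groups, with a median difference of 0.21, and 1676 downward, with a median of -0.22. The excess of lower over higher genes depended on the scaling. Higher genes were 35.3% of those called in FPKM as deposited. They were 51.1% (2551 higher, 2446 lower) after median-ratio rescaling of the libraries and 48.2% (2337 higher, 2513 lower) after quantile normalization. Rescaling on the sum without mitochondrially encoded genes kept the excess, with 34.2% higher (1728 higher, 3329 lower).

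Transcript structure went with the direction of the difference. Lengths and base composition were taken from the GENCODE vM21 annotation of GRCm38 for the longest protein-coding transcript of each symbol, which matched 11700 of the 12559 genes (93.2%). Genes called higher had a median 3′ UTR of 523 bases, genes called lower one of 2428 bases, and genes called neither one of 1017 bases. The median GC content of the transcript was 55.5% for higher genes, 46.6% for lower genes and 51.3% for the rest. Median gene spans on the chromosome were 12194 bases for higher genes and 45973 bases for lower ones.

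The gradient was steady over the range of 3′ UTR lengths. In the decile of genes with the shortest 3′ UTRs (median 130 bases), 29.4% were called higher and 6.07% lower, with a median difference of 0.17. In the decile with the longest (median 4943 bases), 2.56% were called higher and 64.7% lower, with a median difference of -0.39. Over GC content, 2.14% were called higher and 52.1% lower in the lowest decile (median 40.2%), and 33.5% higher and 4.79% lower in the highest decile (median 60.2%). Both gradients ran in opposite directions in the other libraries or were nearly flat. On group-centred values, the longest decile minus the shortest decile was -0.51 to -0.37 in the libraries numbered 4 and -0.04 to 0.32 in the other 9. The highest GC decile minus the lowest was 0.29 to 0.36 against -0.25 to -0.03. Because values are centred on the group, libraries 1 to 3 of a group must lie opposite to library 4 on average.

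Spearman's rho of the mean difference, across 11700 genes, was -0.51 with 3′ UTR length, 0.41 with GC content, -0.39 with the gene's span, -0.17 with coding length and -0.01 with the number of exons. These are descriptions across genes. 3′ UTR length and GC content were themselves related (rho -0.42), and a gene's own choice of transcript matters: with the median over all its coding transcripts in place of the longest, rho was -0.36 for 3′ UTR length and 0.38 for GC content. Each feature went with the difference at fixed levels of the other. With genes cut into 3 equal parts on each feature, those with high GC content and short 3′ UTRs (GC above 53.7%, 3′ UTR up to 711 bases) had 34.5% called higher and 3.12% lower. Those with low GC content and long 3′ UTRs (GC up to 47.3%, 3′ UTR above 1890 bases) had 1.72% higher and 59.2% lower. Among genes of high GC content, the share called lower went from 3.12% with short to 27.7% with long 3′ UTRs, and among those with long 3′ UTRs it went from 27.7% at high to 59.2% at low GC content.

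Spline curves of 3′ UTR length accounted for 23.6% of the variance of the mean difference among genes, those of GC content for 16.1%, those of coding length for 2.23%, and all 3 together for 29.3%. With these curves removed from every library, 1964 genes were called higher and 1707 lower, against 1589 and 3100 of the same 11700 genes before. Of these, 1076 higher and 1368 lower genes were called both ways. The first axis then held 43.3% of the group-centred variance, against 48.9% before in these genes. The libraries numbered 4 still had the 3 highest scores on it. Most noncoding classes, which have no 3′ UTR, leaned upward: 26.0% of 104 antisense transcripts and 22.7% of 141 long intergenic noncoding RNAs were called higher, and 4.81% and 5.67% lower. The lean was weaker in 103 processed transcripts (19.4% higher, 8.74% lower). In 28 processed pseudogenes 10.7% were called in each direction.

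**Figure D2:**
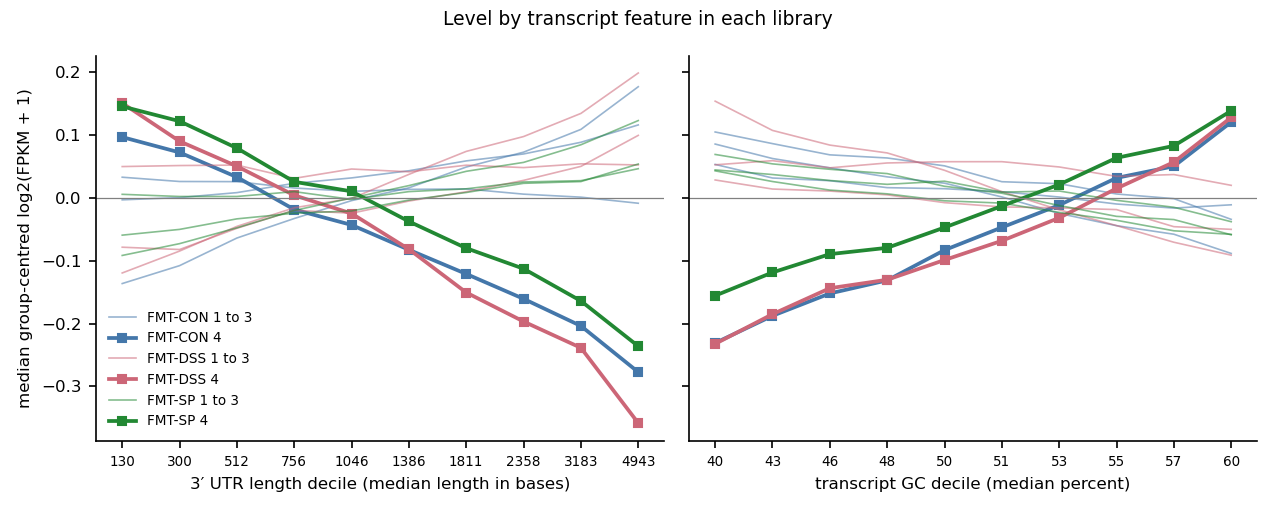
Median group-centred log2(FPKM + 1) over genes in deciles of 3′ UTR length (left) and transcript GC content (right), 1 line per library, with the median of each decile on the horizontal axis (deciles evenly spaced). Thick lines with squares are the libraries numbered 4 and thin lines those numbered 1 to 3; the 3 thick lines cross from above to below 0 with longer 3′ UTRs and from below to above 0 with higher GC content.

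The largest upward differences shared by the 3 libraries were those of Thpo, Lars2, Traip, Col6a1 and Chrd. Thpo encodes thrombopoietin, the growth factor of platelet precursors. It was at 12.9, 14.9 and 11.4 FPKM in FMT-CON 4, FMT-DSS 4 and FMT-SP 4, and at 2.32 to 6.70 FPKM (median 3.81) in the other 9, a mean difference of 1.59 ± 0.08 (SD, n = 3 groups). Chrd, which encodes chordin, a secreted antagonist of bone morphogenetic proteins, was at 37.6, 43.1 and 37.7 FPKM against 6.84 to 20.4 (median 15.5). Neither gene overlapped between the 3 libraries and the other 9. On chromosome 16 of GRCm38, Thpo (20724454 to 20734511, minus strand) and Chrd (20733127 to 20742384, plus strand) overlap by 1385 bases on opposite strands. Whether the counting used strand is not given in the sources used here, so fragments of that stretch cannot be told apart.

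Lars2, on chromosome 9 (123366927 to 123462666), encodes the leucyl-tRNA synthetase of mitochondria. Its level was 40.5, 30.3 and 40.8 FPKM in the libraries numbered 4 and 7.03 to 18.6 (median 11) in the other 9, a mean difference of 1.57 ± 0.18 (SD, n = 3). Gm26917, a symbol outside the rule for named genes and picked after its values were seen, was at 370, 291 and 381 FPKM against 61.6 to 155 FPKM. Values are per gene, so where fragments lay within Lars2 or Gm26917 cannot be seen, and any link between them was not tested. Col6a1, which encodes a chain of collagen VI, was at 19.1, 37.7 and 29.4 FPKM against 4.90 to 16.5 (median 8.42). The FMT-CON 4 value of Col6a1 was closest to the other libraries, and that of FMT-DSS 4 was the highest. Traip, a ubiquitin ligase gene, was at 23.1, 25.6 and 18.7 FPKM against 4.76 to 17.5 (median 6.30), so that FMT-SP 4 stood only just above the highest of the others.

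Cpne7, a copine gene and the most abundant of the named higher genes, was at 210, 270 and 233 FPKM against 67.9 to 158 (median 102), a mean difference of 1.27 ± 0.07 (SD, n = 3). Pxn, which encodes the focal adhesion scaffold paxillin, was at 18.1, 21.9 and 17.6 FPKM against 6.34 to 11.2 (median 7.18). Rps6kb2, an S6 kinase gene, was at 39.6, 44.4 and 38.5 FPKM against 12.99 to 24.3 (median 15.7). These 3 genes differed by nearly the same amount in every group. Rgs11, which encodes a regulator of G protein signalling, and Ap1g2, a gene for a subunit of the clathrin adaptor complex AP-1, had their highest values in FMT-DSS 4, at 40.6 and 18.3 FPKM, with 24.6 and 8.25 in FMT-CON 4 and 24.0 and 7.12 in FMT-SP 4. Their other 9 libraries lay between 7.05 and 16.2 and between 1.61 and 4.88 FPKM. The remaining named genes, the corepressor gene Tle2 (mean difference 1.16) and the anion transporter gene Slc26a10 (1.24), were likewise above all 9. Rgs11, Rps6kb2 and Slc26a10 overlap tested neighbours (Arhgdig, Coro1b and B4galnt1) on the opposite strand, and these were called higher too, with mean differences of 0.45, 0.42 and 0.36.

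The largest downward differences included those of Frrs1l, Pcdhgc3 and Oip5os1. Frrs1l, needed for assembly of AMPA receptors, was at 8.63, 5.69 and 9.30 FPKM in the libraries numbered 4 and at 14.6 to 37.7 (median 32.3) in the other 9, a mean difference of -1.76 ± 0.40 (SD, n = 3). Scn4b, an auxiliary subunit gene of sodium channels, was at 2.91, 2.09 and 1.84 FPKM against 3.23 to 25.8 (median 10.1). In both genes the libraries numbered 4 were the 3 lowest of all 12, and FMT-CON 3 held the next lowest value. FMT-DSS 4 was the lowest for Frrs1l and FMT-SP 4 for Scn4b. Pcdhgc3, a clustered protocadherin gene of neuronal self-recognition, was at 1.29, 1.44 and 1.82 FPKM against 3.12 to 10.01 (median 7.94). Its 3 differences were alike, with a mean of -1.64 ± 0.01. Its span covers other genes of the gamma protocadherin cluster, which share their final exons, so fragments may have been split among them. The 6 of these that were tested (Pcdhga3, Pcdhga7, Pcdhga11, Pcdhga12, Pcdhgb6 and Pcdhgc5) were all called lower, with mean differences from -1.38 to -0.66.

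Oip5os1, a long noncoding RNA, was at 4.99, 4.01 and 6.16 FPKM against 8.45 to 32.5 (median 22.8), a mean difference of -1.84 ± 0.24 (SD, n = 3). Usp9x, a deubiquitinase gene, was at 2.90, 2.84 and 2.83 FPKM against 5.005 to 12.04 (median 9.65), and Lnpep, an aminopeptidase gene, at 0.357, 0.163 and 0.338 FPKM against 0.762 to 4.63 (median 3.08). Arfgef3, Megf9, Pura (a gene for a nucleic acid binding protein) and Tnks (tankyrase) had mean differences of -1.57, -1.49, -1.22 and -1.30. Slc17a6 encodes the vesicular glutamate transporter VGLUT2, which in the forebrain is abundant in the thalamus. It was at 4.35, 2.32 and 2.03 FPKM against 4.53 to 46.2 (median 9.35), so the other 9 differed widely among themselves. All 23 named genes lay outside the range of the other 9 in all 3 libraries, as 9.05% of all genes examined did upward and 17.1% downward. The 12 higher ones had 3′ UTRs of 213 to 3022 bases (median 863.5) and a median GC content of 56.6%. The lower ones, 10 of 11 with annotation, had 3′ UTRs of 1747 to 8342 bases (median 4794.5) and a median GC content of 43.2%.

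**Figure D3:**
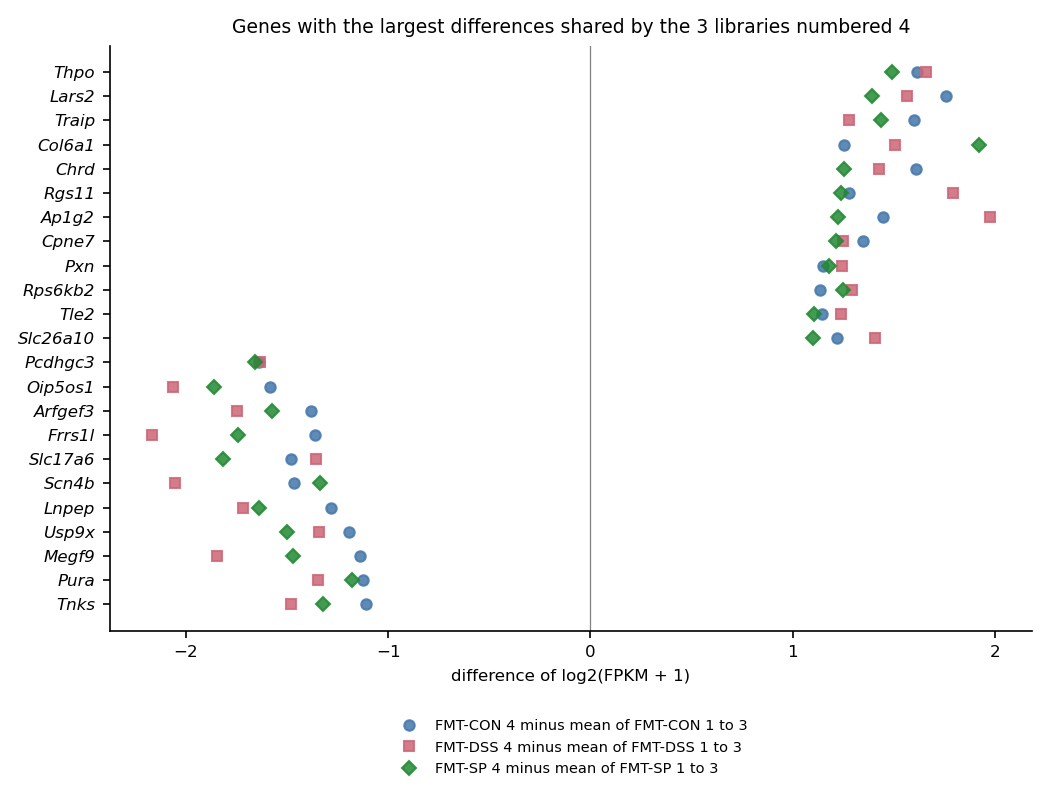
Difference of log2(FPKM + 1) between the library numbered 4 and the mean of libraries 1 to 3 of its group, for the 12 higher and 11 lower genes with the largest smallest difference. Each row is a gene and each symbol a group; all 3 symbols of every gene lie on one side of 0 and at least 1 unit from it.

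Mitochondrially encoded genes took 27.7% of the summed FPKM in FMT-CON 4, 29.0% in FMT-DSS 4 and 24.0% in FMT-SP 4. These were 9.56, 11.1 and 6.02 percentage points above the mean of the other 3 libraries of the group, on average 8.88 ± 2.60 (SD, n = 3). Of the 13 protein-coding genes of the mitochondrial genome, 8 were called higher (background 13.9%) and 0 lower (background 25.6%), and all 13 had a mean difference above 0. The list means were 0.78, 0.70 and 0.60 in the 3 groups. COX1, a core subunit of cytochrome oxidase, was at 35185, 37139 and 29719 FPKM in FMT-CON 4, FMT-DSS 4 and FMT-SP 4, and at 16107 to 24053 FPKM in the other 9. ND1, a complex I subunit, was at 19226, 22499 and 16510 FPKM against 8869 to 13548. ND2, ND4, ND5, COX2 and CYTB were also above all 9, with mean differences of 0.85, 0.63, 0.84, 0.75 and 0.70, of which that of ND4 turned to -0.13 after quantile normalization. FMT-SP 4 was the lowest of the 3 for each of these except COX2, where it was the highest.

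ND6, the only one of the 13 that is encoded on the light strand, was at 72.8, 71.0 and 69.5 FPKM against 23.4 to 37.0 (median 31.4). Its mean difference of 1.18 ± 0.07 was the largest of the 13. The 5 genes not called were ND3, ND4L, COX3, ATP6 and ATP8. COX3 was at 412, 674 and 479 FPKM against 202 to 502, and ATP8 at 159, 116 and 105 FPKM against 63.3 to 134. ATP6, an ATP synthase subunit, was at 797, 463 and 464 FPKM against 207 to 909, so the libraries numbered 4 lay within the range of the others. All 5 were at lower levels per length than ND1 or COX1, but so were ND6 and COX2, which were called higher. As background, ATP8 overlaps ATP6 and ND4L overlaps ND4 on the mitochondrial genome, and parts of that genome have copies in the nucleus.

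Nuclear genes of the same machinery differed less. Of 60 nuclear-encoded subunits of the respiratory chain, 20 (33.3%) were called higher and 4 (6.67%) lower, against 13.9% and 25.6% over all genes, with a median difference of 0.16 against -0.06 over all genes. Ndufb9, of complex I, was at 308, 338 and 288 FPKM against 207 to 284 (median 232), and Uqcr11, of complex III, at 323, 279 and 304 FPKM against 202 to 294 (median 227). The values of Uqcr11 overlapped those of the other libraries, and the values of Ndufb9 did not. The 4 called lower, Sdha, Ndufs1, Ndufa9 and Sdhd, were below all 9, with mean differences of -0.38, -0.28, -0.24 and -0.20. Of 18 nuclear ATP synthase genes, 7 (38.9%) were called higher and 1 (5.56%) lower. Among these Atp5mpl, a small subunit, was at 133, 119 and 124 FPKM against 66.9 to 116 (median 84.7). Atp5a1, the gene called lower, was at 259, 266 and 263 FPKM against 281 to 363 (median 320). With 3′ UTR length, GC content and coding length smoothed out, the list means went from 0.16 to 0.03 for the respiratory chain and from 0.16 to -0.01 for the ATP synthase. The median 3′ UTR of these lists was 202 and 146.5 bases.

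Genes of the translation apparatus leaned upward in the same libraries, with overlap. Cytosolic ribosomal protein genes took 8.06%, 8.16% and 7.91% of the nuclear-encoded FPKM in FMT-CON 4, FMT-DSS 4 and FMT-SP 4, and 6.21% to 7.87% in the other 9. Their summed FPKM did not set the libraries apart, at 23719, 24160 and 23608 against 17574 to 24122. The list mean of group-centred values was higher in FMT-CON 3 (0.15) than in FMT-CON 4 (0.13). Of 79 tested, 27 (34.2%) were called higher and 0 lower, against 13.9% and 25.6% over all genes, 77 had a mean difference above 0, and the median difference was 0.25. Rpl35 was at 510, 525 and 539 FPKM against 308 to 507 (median 347), Rpl29 at 130, 144 and 126 FPKM against 85.1 to 121 (median 88.3), and Rpl13a at 477, 502 and 473 FPKM against 297 to 446 (median 333). The nearest of the 9 were close to the number 4 values in all 3 genes. Of 76 mitochondrial ribosomal protein genes, 25 (32.9%) were called higher and 1 (1.32%) lower, with a median difference of 0.18. Mrpl33 was at 41.4, 47.2 and 44.5 FPKM against 25.1 to 38.9 (median 26.6). After smoothing of the transcript features, the list means were 0.12 for cytosolic and 0.14 for mitochondrial ribosomal proteins, against 0.25 and 0.17 before. Ribosomal protein genes have many processed pseudogenes, and how the authors assigned shared fragments is not given in the sources used here. Of 31 proteasome genes, 7 (22.6%) were higher and 3 (9.68%) lower, more and fewer than over all genes, among them Psmc4 at 80.8, 82.5 and 78.1 FPKM against 56.5 to 68.9, and Psmd1 at 28.1, 29.6 and 29.9 FPKM against 33.1 to 42.0.

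Of 10 long noncoding RNAs that stay in the nucleus, 4 were called higher and 1 lower, with a list mean of 0.36. The share called higher was 13.9% over all genes and 22.7% over long intergenic noncoding RNAs. Mirg was at 39.3, 32.9 and 35.3 FPKM against 11.2 to 31.7 (median 16.8), Snhg11 at 514, 615 and 524 FPKM against 199 to 421 (median 295), and Miat at 78.2, 79.4 and 90.2 FPKM against 41.5 to 70.4 (median 57.8). All 3 stood above the other 9 libraries, whereas Meg3 (329, 313 and 367 FPKM against 163 to 335) overlapped them. Of 12 host genes of small nucleolar RNAs, 6 (50%) were called higher and 0 lower, and all 12 had a mean difference above 0. FMT-DSS 4 was apart from the other 2 in this list, with a mean of 0.61 against 0.27 in FMT-CON 4 and 0.28 in FMT-SP 4. Snhg3 was at 18.0, 28.8 and 16.0 FPKM against 7.13 to 16.2, and Snhg7 at 8.54, 9.91 and 9.52 FPKM against 4.24 to 7.24.

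Of 32 splicing factors and other RNA-binding proteins, 6 (18.8%) were called higher, near the 13.9% over all genes, and 1 (3.12%) lower, against 25.6%. The list mean was 0.14 and the median GC content 44.0%. Smoothing out the transcript features moved the mean up to 0.31. Clk2, a kinase of splicing factors, was at 5.78, 5.403 and 5.16 FPKM against 1.84 to 4.19 (median 2.58). Rbm5 was at 70.9, 70.9 and 68.6 FPKM against 24.6 to 59.2 (median 48.4), and Srsf11 at 38.2, 46.5 and 38.5 FPKM against 23.1 to 33.4 (median 26.7). Each was above all 9 other libraries.

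Of 24 genes of synaptic vesicle release, 11 were called lower and 1 higher (background 25.6% and 13.9%), with a median difference of -0.31. Syt11, a synaptotagmin gene, was at 77.9, 64.2 and 80.8 FPKM against 96.8 to 133 (median 121), and Sv2a, a vesicle glycoprotein gene, at 69.2, 62.5 and 76.6 FPKM against 81.9 to 116 (median 110). Of 32 genes of the postsynaptic scaffold and glutamate receptors, 12 were lower and 1 higher, with a median difference of -0.16. Grin2b, an NMDA receptor subunit gene with the largest difference in the list, was at 6.99, 4.92 and 8.46 FPKM against 10.3 to 19.9 (median 16.4), and the adhesion gene Nrxn3 at 8.79, 7.22 and 9.93 FPKM against 11.8 to 18.7 (median 16.5). FMT-DSS 4 was the lowest library of all 12 in these 4 genes. Smoothing of transcript features took the mean of the vesicle list from -0.27 to -0.13 and that of the postsynaptic list from -0.26 to -0.03.

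Of 29 potassium channel genes, 16 (55.2%) were called lower and 3 (10.3%) higher, against 25.6% and 13.9% over all genes, with a median difference of -0.26. Kcnj10, the inward rectifier of astrocytes, was at 12.7, 9.14 and 13.7 FPKM against 16.4 to 45.1 (median 24.8). Kcnc2 was at 3.96, 3.11 and 4.78 FPKM against 5.13 to 10.3 (median 7.12). Against these, Kcnt1 was at 18.7, 29.2 and 16.2 FPKM with 7.49 to 19.6 (median 12.2) in the others, and was called higher. The mean of this list was -0.26 and became -0.03 after smoothing. Of 19 sodium and calcium channel genes, 6 (31.6%) were lower and 4 (21.1%) higher, near the shares over all genes. Scn2a was at 12.7, 12.9 and 14.2 FPKM against 18.3 to 29.3, Cacnb4 at 5.59, 5.26 and 6.71 FPKM against 9.17 to 13.8, and Cacna1h, a T-type calcium channel gene, at 23.6, 22.0 and 20.9 FPKM against 8.49 to 14.4. Of 30 chromatin regulators, many with long coding sequences, 12 (40.0%) were lower and 3 (10%) higher. Setd1b, a histone methyltransferase gene, was at 2.51, 1.78 and 2.68 FPKM against 2.86 to 4.52, and its relative Setd1a at 16.3, 22.1 and 14.7 FPKM against 8.59 to 12.6. After smoothing, the means of the last 2 lists turned to 0.08 and 0.04, from -0.10 and -0.11.

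Of 22 genes of cholesterol synthesis, 10 (45.5%) were called lower and 1 (4.55%) higher, against 25.6% and 13.9% over all genes, with a median difference of -0.36, and the list mean was -0.45 in FMT-DSS 4, -0.28 in FMT-CON 4 and -0.06 in FMT-SP 4. Hmgcs1 was at 30.3, 21.9 and 34.1 FPKM against 31.7 to 51.4 (median 44.4), and Hsd17b7 at 1.79, 1.64 and 1.62 FPKM against 2.52 to 3.495. Tm7sf2, a sterol reductase gene, was the member called higher, at 14.0, 12.6 and 13.3 FPKM against 6.88 to 11.1. The list mean was -0.21 after smoothing. Of 18 genes of the unfolded protein response, 6 were lower and 0 higher, among them Dnajc3 at 6.85, 6.16 and 7.12 FPKM against 8.31 to 12.5. Of 29 heat shock and chaperone genes, 7 were lower and 0 higher, among them Dnajb1 at 10.02, 10.3 and 11.6 FPKM against 13.7 to 18.4. For both lists the share called lower (33.3% and 24.1%) was close to the 25.6% over all genes, and the share called higher was 0% against 13.9%. The heat shock list mean was -0.12 in FMT-CON 4, -0.21 in FMT-DSS 4 and 0.006 in FMT-SP 4. Metallothioneins, which bind zinc and copper, had 2 of 3 tested genes (66.7%) called higher and 0 lower, against 13.9% and 25.6% over all genes. Their list mean was 0.57 and went to 0.26 after smoothing. Mt1 was at 311, 472 and 301 FPKM against 154 to 420, and Mt3 at 694, 630 and 667 FPKM against 482 to 631.

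Immediate early genes, which are induced within minutes by neuronal activity, did not behave alike in the 3 groups. Their list mean was -0.42 in FMT-CON 4 and -0.52 in FMT-DSS 4 but 0.02 in FMT-SP 4, and 2 of 20 (10%) were called lower, below the 25.6% over all genes, and 0 higher. Fos was at 2.18, 3.58 and 4.90 FPKM against 3.44 to 15.6 (median 6.04), and Egr1 at 14.2, 17.6 and 23.3 FPKM against 15.4 to 42.8 (median 34.0), so both overlapped the other libraries. Glucocorticoid-responsive genes had means of -0.21, 0.32 and 0.05, interferon-stimulated genes of -0.04, -0.15 and 0.35, and circadian clock genes of -0.18, -0.07 and 0.07. These 3 lists had no common direction. Of their 18, 10 and 17 tested genes, 1, 1 and 0 were called higher and 2, 1 and 3 lower. Each share was below the 13.9% and 25.6% over all genes. Among the called members, Clock was at 6.14, 5.42 and 6.505 FPKM against 8.03 to 10.7, Klf9 at 29.4, 39.1 and 33.4 FPKM against 41.9 to 71.8, and Stat2 at 8.76, 8.55 and 8.83 FPKM against 4.71 to 7.23.

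**Figure D4:**
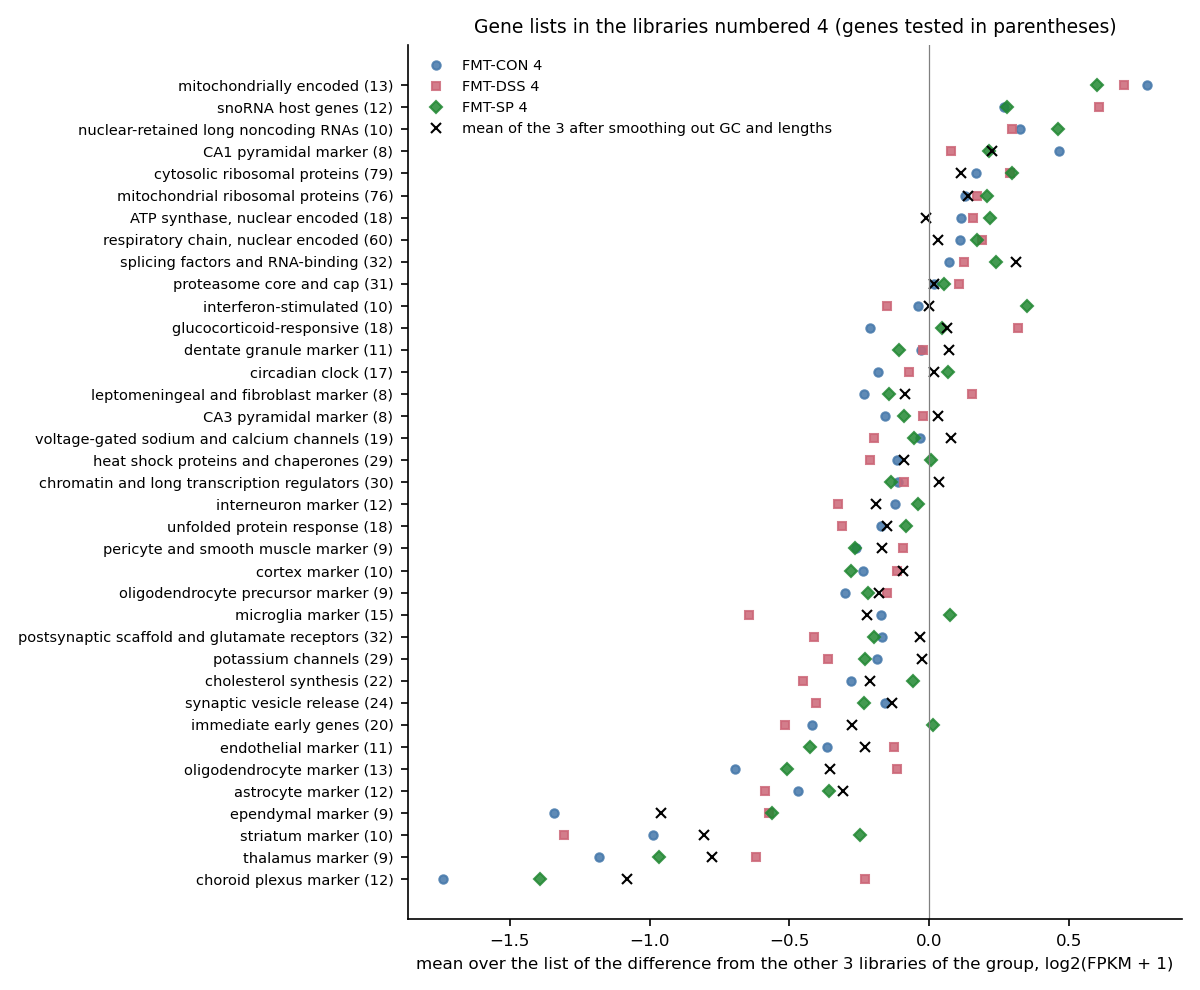
Mean difference of log2(FPKM + 1) over each gene list with at least 8 tested genes, library numbered 4 minus the other 3 of its group, 1 symbol per group, with the number of genes in parentheses. Crosses are the mean of the 3 after transcript GC content, 3′ UTR length and coding length were smoothed out, for lists with enough annotated genes; mitochondrially encoded genes are at the top (0.60 to 0.78) and choroid plexus markers at the bottom (-1.74 to -0.23).

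Markers of hippocampal neurons were present in all 12 libraries, and none of the 8 CA1, 8 CA3 and 11 dentate granule markers was at 0 anywhere. The libraries numbered 4 were not set apart by them: summed FPKM of the dentate markers was 137 to 168 in the 3 and 113 to 192 in the other 9, and that of the CA3 markers 88.2 to 97.6 against 75.5 to 104. CA1 markers summed to 251, 258 and 245 FPKM against 118 to 289. Of the 8 CA1 genes 2 (25%) were called higher and 0 lower, against 13.9% and 25.6% over all genes, and Spink8 was at 35.9, 40.7 and 30.5 FPKM against 10.4 to 38.3. Of 12 interneuron markers, 2 (16.7%) were called higher and 4 (33.3%) lower, close to the 13.9% and 25.6% over all genes. Their list mean was -0.16, but their summed FPKM went the other way, at 1036, 885 and 1060 against 713 to 983. In each group the library numbered 4 had the highest sum. The enzyme gene Gad2 was at 9.37, 7.84 and 10.7 FPKM against 15.3 to 27.9, and the vesicular GABA transporter gene Slc32a1 at 10.2, 7.76 and 10.7 FPKM against 14.1 to 25.3. The peptide gene Npy, at 114, 118 and 131 FPKM against 52.8 to 116, was called higher.

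Astrocyte markers were lower in all 3 groups. Of 12 tested, 6 were called lower and 0 higher (background 25.6% and 13.9%), with list means of -0.47, -0.59 and -0.36. Their summed FPKM was 639, 645 and 719 against 790 to 929 in the other 9, without overlap. Slc1a2, the main glutamate transporter of astrocytes, was at 86.9, 69.9 and 110 FPKM against 134 to 204 (median 168), the water channel gene Aqp4 at 11.3, 6.39 and 11.2 FPKM against 13.9 to 26.97 (median 18.9), and the gap junction gene Gja1 at 27.5, 21.0 and 29.0 FPKM against 33.6 to 52.7 (median 48.4). After smoothing of transcript features the list mean was -0.31, against -0.47 before. Oligodendrocyte markers had means of -0.70, -0.12 and -0.51, with 2 of 13 (15.4%) called lower, below the 25.6% over all genes, and 0 higher, and their summed FPKM (1517, 2076 and 1223 against 1305 to 3041) overlapped the other libraries. Mag, a myelin gene, was at 63.1, 60.6 and 57.8 FPKM against 66.4 to 149. Endothelial markers had 2 of 11 (18.2%) called lower, also below the share over all genes, with Itm2a at 15.8, 6.81 and 19.8 FPKM against 9.74 to 40.8. Microglia markers were at -0.65 in FMT-DSS 4, -0.17 in FMT-CON 4 and 0.07 in FMT-SP 4, so they did not go with the number 4 across groups. Cx3cr1 was at 7.37, 2.20 and 8.44 FPKM against 1.12 to 13.9.

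Markers of tissue next to the hippocampus varied widely among all 12 libraries. Choroid plexus markers summed to 33.4 FPKM in FMT-CON 4, 2330 in FMT-DSS 4 and 58.4 in FMT-SP 4, and to 20.1 to 3880 FPKM in the other 9, and none of the 13 markers was at 0 in any library. Ttr, which encodes transthyretin and dominates that sum, was at 27.2, 2302 and 51.7 FPKM against 14.7 to 3779. FMT-CON 4 and FMT-SP 4 were thus among the libraries with little choroid plexus RNA, and FMT-DSS 4 was not. Ependymal markers summed to 20.4, 31.0 and 23.7 FPKM against 22.0 to 99.96, with 4 of 9 (44.4%) called lower, against 25.6% over all genes, and 0 higher, among them Foxj1, a regulator of motile cilia, at 1.61, 2.68 and 1.48 FPKM against 2.06 to 8.62. Thalamus markers summed to 66.9, 60.1 and 48.6 FPKM against 41.2 to 410, with 4 of 9 lower and 0 higher too, and striatum markers to 83.2, 101 and 82.3 FPKM against 74.1 to 440, with 1 of 10 lower, below the share over all genes, and 0 higher. Zic1 was at 1.56, 2.51 and 1.41 FPKM against 1.26 to 36.3, and Drd2 at 0.727, 0.472 and 0.763 FPKM against 0.540 to 14.7. All 3 libraries numbered 4 were at the low end for thalamus, striatum and ependymal markers, and each of these ranges was also reached, or nearly so, by some of the other 9. Pituitary, erythrocyte and neutrophil markers had no common direction in the 3 libraries. What part the neighbouring tissue had in the differences of other genes was not tested.

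**Figure D5:**
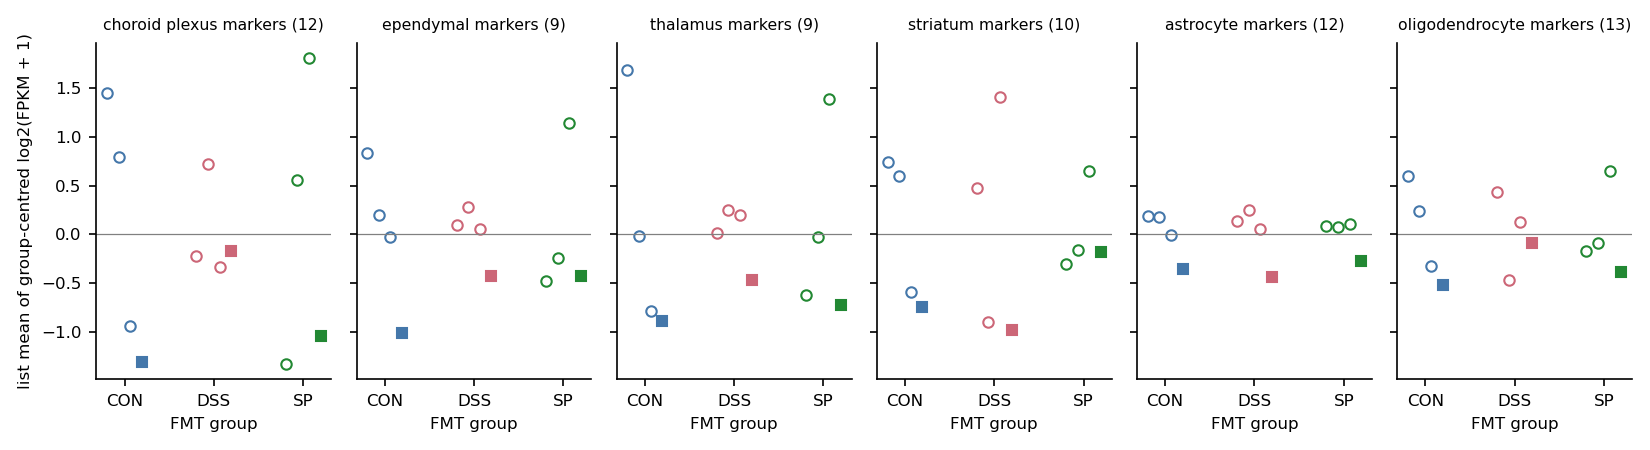
List mean of group-centred log2(FPKM + 1) for markers of choroid plexus, ependyma, thalamus, striatum, astrocytes and oligodendrocytes, with the number of genes in parentheses, 1 point per library. Filled squares are the libraries numbered 4 and open circles those numbered 1 to 3, ordered by number within a group; the square is the lowest of its group in all 3 groups for astrocyte and thalamus markers, in 2 for ependymal, striatum and oligodendrocyte markers and in 1 for choroid plexus markers.

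Each number occurs once in each group, so the libraries numbered 4 weigh equally on every treatment comparison and add to the spread within groups. With all 12 libraries, limma called 0 of 12559 genes (0%) at an adjusted p under 0.05 in any of the 3 treatment contrasts. Taken without adjustment, p was under 0.05 for 510 genes (4.06%) between FMT-DSS and FMT-CON, 314 (2.5%) between FMT-SP and FMT-DSS, and 45 (0.358%) between FMT-SP and FMT-CON. Without the 3 libraries numbered 4, the counts in that order were 369, 167 and 102, and 0 genes passed the adjusted threshold in each. With the number 4 as a covariate, an alternative added after the data were seen, the counts were 1067, 855 and 135, again with 0 past the adjusted threshold. The covariate lowered the median residual SD per gene from 0.20 to 0.15 on the log2(FPKM + 1) scale, and the residual SD was smaller in 75.0% of genes. Since the libraries were picked for their distance from the rest, a smaller residual is what the choice gives. The p-values measure the spread between these libraries, which may be technical.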

How the data were processed

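The 12 libraries hold total RNA of the mouse hippocampus, and groups and numbers were read from the sample titles. The deposited table holds FPKM per gene and library, computed by the authors, per the file headers. The submitters' processing notes name HISAT2 2.0 and the build mm8 with no role. No source used here names the counter, the annotation, the use of strand or a filter. Genes, lists and the 3 libraries were chosen with earlier results of these data known.

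Values were transformed to log2(FPKM + 1), and genes whose mean reached 1 FPKM were kept. Depth was estimated from the steps of 1 fragment in low FPKM values of 4713 genes with a single transcript; 38.9% to 41.6% of these values lay within 0.05 of a whole number, against 10% by chance. Python 3.11.15 with numpy 2.4.6, pandas 2.3.3, scipy 1.17.1 and patsy 1.0.2 gave the differences, the singular value decomposition and the spline curves (5 degrees of freedom for each feature). Treatment contrasts used limma 3.58.1 in R 4.3.3 on all 12 libraries, two-sided, with a mean-variance trend and Benjamini-Hochberg adjustment over all genes examined. The limma step was tested on simulated data with known changes. Transcript lengths, GC content and positions come from GENCODE vM21 (GRCm38), matched by symbol; that build is not the one in the notes, so positions hold for GRCm38 alone. The span of a 3′ UTR includes the stop codon.

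Named genes are the 12 higher and 12 lower called genes with the largest smallest difference over the 3 groups, leaving out symbols without a gene name and mitochondrially encoded genes, plus up to 4 members of each list with the largest mean difference, plus all mitochondrially encoded genes. Of these, 1 of the 12 lower genes and 1 list member are not reported here. Other pseudocounts, filters, scalings and left-out libraries were tried.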

Additional observations from a re-analysis of the deposited data

Results flagged for a closer look

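Within each group of 4 libraries, the gap between the highest or lowest library and its nearest neighbour was divided by the group's range, and values above Dixon's critical value of 0.829 were picked out. This was done for 82 quantities in 3 groups, 246 groups in all, of which 14 (5.69%) passed; chance alone passes about 1 in 20. Of the 14, 8 concerned a library numbered 4, and all of these were FMT-SP 4. It was apart in the GC gradient (0.892), in the level of astrocyte markers (0.926) and in 6 named genes, Pxn (0.974), Rps6kb2 (0.843), Tle2 (0.834), Pcdhgc3 (0.830), Frrs1l (0.882) and Megf9 (0.878). The libraries numbered 4 were picked from all gene levels, and the genes for such distances, so all 8 values describe the choice.

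The other 6 concerned list levels in libraries numbered 1 to 3. FMT-CON 2 was apart in splicing factors (0.931), FMT-CON 3 in pituitary and hypothalamus markers (0.924) and FMT-DSS 2 in choroid plexus markers (0.849). FMT-SP 3 was apart in CA1 markers (0.857), ependymal markers (0.856) and striatum markers (0.858).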

How the results depend on the processing

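Leaving out 1 library at a time gave 1758 to 2568 genes called higher and 3222 to 3941 called lower, counts that can only grow when fewer libraries must be passed. The mitochondrial share stood 7.79 to 10.3 percentage points higher, and the first axis held 42.7% (without FMT-CON 4) to 55.1% (without FMT-DSS 2). With transcript features smoothed out, an alternative added after the data were seen, 1707 genes were called lower and the axis held 43.3%. Without a filter on low values, 2240 genes were called higher and 3748 lower. Changes of sign were counted only where the 3 group means had shared a direction. Of 776 alternative values of list means, 740 moved by less than 1 SD over the groups, 29 moved by more and 7 changed sign. Dentate markers went to 0.00951 (median-ratio), 0.017 (quantile) and 0.069 (smoothed). When smoothed, ATP synthase genes went to -0.013, sodium and calcium channels to 0.079, chromatin regulators to 0.037 and CA3 markers to 0.030. Lists of mixed direction are outside the 7. For one, the 16 annotated circadian clock genes went from -0.07 to 0.02 when smoothed. Single genes were followed for 36 only, those named by the rule of largest differences and the mitochondrially encoded ones. Of their 670 values, 1 changed sign by the same count, ND4 at -0.13 after quantile normalization. The genes named by the rule were picked for large differences, so a change of sign was unlikely for them. Other list members named above were not put through these alternatives. The cause of the changes of sign was not tested. Depth was estimated rather than given, so no counting interval is printed for low genes such as Lnpep.

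Same-numbered libraries correlated between groups at -0.33 to 0.36 (number 1), 0.24 to 0.53 (number 2), -0.45 to 0.11 (number 3) and 0.69 to 0.84 (number 4). Of the 12 libraries, 7 correlated best with their own number. Among these 7 were the 3 numbered 4, which were picked for lying together. Whether the numbers pair the libraries was not tested. With the replicate number as a block, limma called 0 genes in each contrast, with 1274 (FMT-DSS and FMT-CON), 885 (FMT-SP and FMT-DSS) and 310 (FMT-SP and FMT-CON) at an unadjusted p under 0.05, and 1020, 792 and 165 with block and smoothing. Over single libraries left out, 0 genes were called, with 243 to 1198, 149 to 798 and 14 to 216 at an unadjusted p under 0.05. Without a filter the counts were 1202, 908 and 456, and 0 were called.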
